A study of Mus musculus with 20 samples.

Results

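The cytosolic heat shock response genes are described here in the frontal cortex of mice that carry 0, 1 or 2 copies of a mutant TDP-43 allele. They were 10 genes taken by name from the 25965 rows of the deposited count table: Hspa1a, Hspa1b, Hspa8, Hsph1, Hspa4l, Hsp90aa1, Dnajb1, Bag3, Hspb1 and Hsf1. All 10 were found and all 10 passed the filter on low counts. The samples were RNA-seq libraries of polyadenylated RNA from snap-frozen frontal cortex of C57BL/6 mice aged 5 months: 6 wild type (+/+), 6 heterozygous (Q331K/+) and 8 homozygous (Q331K/Q331K). Q331K is a knock-in change of TDP-43, the RNA-binding protein that Tardbp encodes and that is linked to motor neuron disease and frontotemporal dementia. The labels name no other allele and no treatment in any group, and they do not say whether each library came from a separate mouse, so the p-values here reflect only how much these samples varied.

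Chaperones of the cytosol bind unfolded proteins and help them to fold, or pass them on for degradation. When unfolded proteins build up, the transcription factor HSF1 is released from its chaperone partners, forms trimers and binds heat shock elements, which are inverted repeats of the unit GAA in the promoters of chaperone genes. Brain tissue holds high levels of the constitutive members of this system, while the inducible ones are known to be low there unless cells are stressed. The levels below are those of mice for which the labels give no stress.

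The upstream sequence of the near-identical pair Hspa1a and Hspa1b and of Hspb1 is shown because these genes varied most between libraries, and a short stretch of Hsph1 because it held the longest match to the element. RefSeq promoter windows (GRCm38.p6, 250 bases before to 50 bases after each start) were matched for 7 of the 10 genes; Hspa8, Hsp90aa1 and Hsf1 had no entry. The first 3 lines give the 250 bases before the start and the fourth 30 bases of the second Hsph1 window, from base 7 to base 36, counted from 1 at the start. Capitals mark matches to GAANNTTC or TTCNNGAA, in which both units of an inverted pair are present. Each of these motifs reads the same on both strands.
Hspa1a, chr17:34972157-34972406, minus strand: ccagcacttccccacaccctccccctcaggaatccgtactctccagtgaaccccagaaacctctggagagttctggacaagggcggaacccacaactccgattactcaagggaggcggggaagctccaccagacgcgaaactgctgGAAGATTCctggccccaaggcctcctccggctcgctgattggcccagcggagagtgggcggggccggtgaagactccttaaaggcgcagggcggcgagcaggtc
Hspa1b, chr17:34959239-34959488, minus strand: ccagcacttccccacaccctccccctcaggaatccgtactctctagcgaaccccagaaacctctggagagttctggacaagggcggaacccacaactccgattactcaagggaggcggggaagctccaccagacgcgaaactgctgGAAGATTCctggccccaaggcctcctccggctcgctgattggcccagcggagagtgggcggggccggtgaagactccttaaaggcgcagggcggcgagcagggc
Hspb1, chr5:135887669-135887918, plus strand: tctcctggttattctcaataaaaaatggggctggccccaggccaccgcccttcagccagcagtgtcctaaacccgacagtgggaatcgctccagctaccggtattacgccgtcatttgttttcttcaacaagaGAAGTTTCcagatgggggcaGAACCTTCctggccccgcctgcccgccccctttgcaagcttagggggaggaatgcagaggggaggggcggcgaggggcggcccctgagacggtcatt
Hsph1, chr5:149636280-149636309, minus strand: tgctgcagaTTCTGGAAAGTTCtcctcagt
Hspa1a and Hspa1b differed at 3 of the 250 bases shown and at 4 of the 300 in their windows, and each held 1 such pair, 104 to 97 bases before the start. Hspb1 held a pair from 117 to 110 and another from 97 to 90 bases before the start. In Hsph1 a run of 3 alternating units, in which both pair motifs share the middle unit, lay from base 16 to base 28 after the second start. Hsph1 held a further pair, not shown above, from 54 to 47 bases before the second start, which is 33 to 26 before the first. Bag3 held a pair from base 43 to base 50 after the start, and no match to these letters was found in the windows of Dnajb1 and Hspa4l. Among the 32851 windows of all genes, 7.86% held GAANNTTC, 8.52% held TTCNNGAA and 0.603% held a run of 3 units in either orientation. These matches are descriptions of letters, not of bound sites.

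Wild-type libraries held 75168829 to 96821696 counts, heterozygous libraries 61282647 to 111440766 and homozygous libraries 69312426 to 105412832, so Hspb1, the gene with the fewest reads, still had 186 to 502 counts per library. Levels are given as CPM, counts scaled to a common library size with edgeR's TMM factors. Tardbp itself averaged 218 ± 5.53 CPM over the 6 wild-type libraries, 230 ± 7.58 CPM over the 6 heterozygous and 245 ± 10.5 CPM over the 8 homozygous (mean ± SD). Excitatory neuron markers summed to between 7606 and 9104 CPM in each library, with all 6 of the list detected. Libraries stood apart in their tissue makeup. Heterozygous library 2 and homozygous libraries 1, 2 and 4 had a mean z score of ependymal markers over 0.5, and striatal markers summed to 359 CPM in heterozygous library 1 and to at most 185 CPM in each of the wild-type and homozygous libraries. In bulk tissue, fewer cells of a type and less RNA per cell cannot be told apart.

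The level of the cytosolic heat shock response genes did not pass the test between any genotypes. Of the 10 genes, 0 were called in homozygotes against wild type, where 1.56% of the 16690 genes tested were called by edgeR's quasi-likelihood test, with Benjamini-Hochberg adjustment over them and a threshold of 0.05. None was called in heterozygotes against wild type (0% of all genes), in homozygotes against heterozygotes (0.108%), in the trend per Q331K allele (1.83%) or in heterozygotes against the midpoint of the other genotypes (0%). With edgeR, DESeq2 and limma voom alike, 0 of 10 reached an unadjusted p under 0.05 in any of these 5 comparisons, where 16.1% of all genes did in homozygotes against wild type, 3.19% in heterozygotes against wild type and 11% in homozygotes against heterozygotes by edgeR. As a description, the ranges of the 3 genotypes overlapped for each of the 10 genes, and the share of all genes tested was not counted.

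Between homozygotes and wild type, the estimated log2 changes of the 10 genes ran from -0.18 for Hspb1 to 0.015 for Hspa4l, with a median of -0.053 beside 0.0013 over all genes tested. Of the 10, 9 estimates lay below 0, beside 49.4% of all genes. In heterozygotes against wild type the median was -0.024 and 7 of 10 lay below 0, beside 48.8% of all genes. In homozygotes against heterozygotes it was -0.048 and 6 of 10 lay below 0, beside 50.2%. Any 2 of these 3 comparisons share the libraries of 1 genotype. The 10 genes were not independent either, with a positive Pearson r over the libraries in 40 of 45 pairs, so these counts are descriptions. The 95% intervals set the size of change that these libraries leave possible: for homozygotes against wild type the narrowest, of Hspa4l, ran from -3.85% to 6.22%, and the widest, of Hspa1b, from -29.4% to 31.3%.

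**Figure D1:**
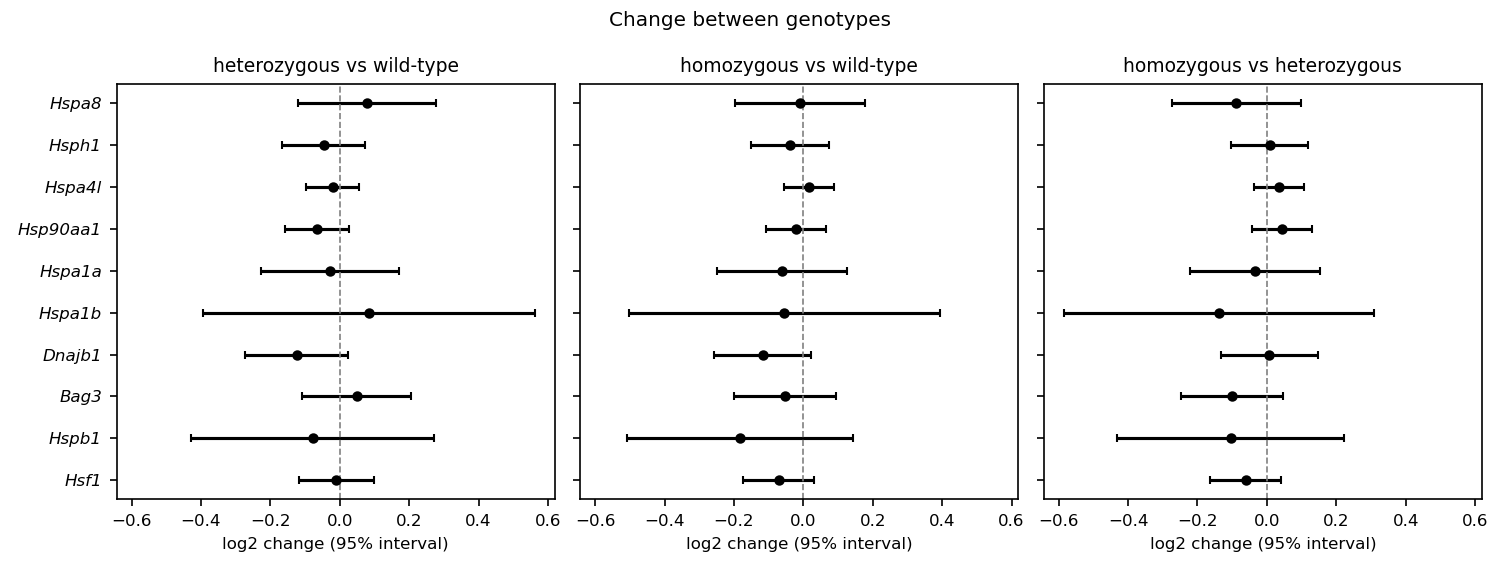
Log2 change of each gene between genotypes (edgeR, 20 libraries in 1 fit); points are estimates, bars are 95% intervals and the dashed line marks no change. The bars of all 10 genes cross 0 in all 3 comparisons, and those of Hspa1b and Hspb1 are the longest.

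Hspa8 encodes the constitutive HSP70 of the cytosol, which folds new proteins and strips clathrin from vesicles. It spans bases 40800984 to 40805200 of chromosome 9, plus strand (ENSMUSG00000015656, GRCm38), and Snord14c, Snord14d and Snord14e lie within it on the same strand. It was the highest of the 10 and ranked 22 by mean CPM among the 16690 genes. The lowest, median and highest levels were 1489, 1806 and 2215 CPM in the wild-type libraries, 1723, 1926 and 2070 CPM in the heterozygous and 1504, 1839 and 2140 CPM in the homozygous. Wild-type library 1 held the highest level of all 20 and wild-type library 6 the lowest, so the wild-type range enclosed both others. The log2 change was -0.0096 in homozygotes against wild type (SE 0.089, edgeR adjusted p = 0.973) and 0.079 in heterozygotes (SE 0.095, edgeR adjusted p = 0.9996).

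The stress-inducible HSP70 is encoded by a pair of neighbouring genes without introns on chromosome 17, minus strand: Hspa1a from 34969199 to 34972154 (ENSMUSG00000091971) and Hspa1b from 34956436 to 34959238 (ENSMUSG00000090877). Their longest open reading frames were identical at 1918 of 1926 aligned bases (99.6%), and 58.8% of all 50-base stretches of the Hspa1a transcript also occurred in that of Hspa1b. How reads that fit both were counted is not given in the sources used here, which leaves the level of each gene alone uncertain. Hspa1a also overlaps Gm20481 on the opposite strand, and the strand setting of the counting is not given in the sources used here either.

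Hspa1a was at 7.43, 8.15 and 9.02 CPM (lowest, median and highest) in wild type, at 7.37, 8.06 and 8.42 CPM in heterozygotes and at 6.14, 7.65 and 11.0 CPM in homozygotes. Both the lowest and the highest of the 20 values came from homozygotes, libraries 4 and 8. The log2 change in homozygotes against wild type was -0.062 (SE 0.090, edgeR adjusted p = 0.790). For Hspa1b the values were 8.59, 9.93 and 15.9 CPM in wild type, 8.08, 10.7 and 17.2 CPM in heterozygotes and 6.16, 11.6 and 14.5 CPM in homozygotes. The 4 highest values came from all 3 genotypes, and the highest, heterozygous library 3, was 2.79 times the lowest, homozygous library 3. The log2 change of Hspa1b was -0.055 in homozygotes against wild type (SE 0.21, edgeR adjusted p = 0.930).

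Counts of Hspa1b per count of Hspa1a ran from 0.865 in homozygous library 3 to 2.14 in wild-type library 1, with medians of 1.17 in wild type, 1.36 in heterozygotes and 1.35 in homozygotes. The pair was therefore also tested as 1 gene. Summed, they averaged 19.2 ± 2.43 CPM over the 6 wild-type, 19.7 ± 3.97 CPM over the 6 heterozygous and 18.4 ± 4.02 CPM over the 8 homozygous libraries (mean ± SD). The log2 change of the sum in homozygotes against wild type was -0.058 (SE 0.15, edgeR adjusted p = 0.885).

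**Figure D2:**
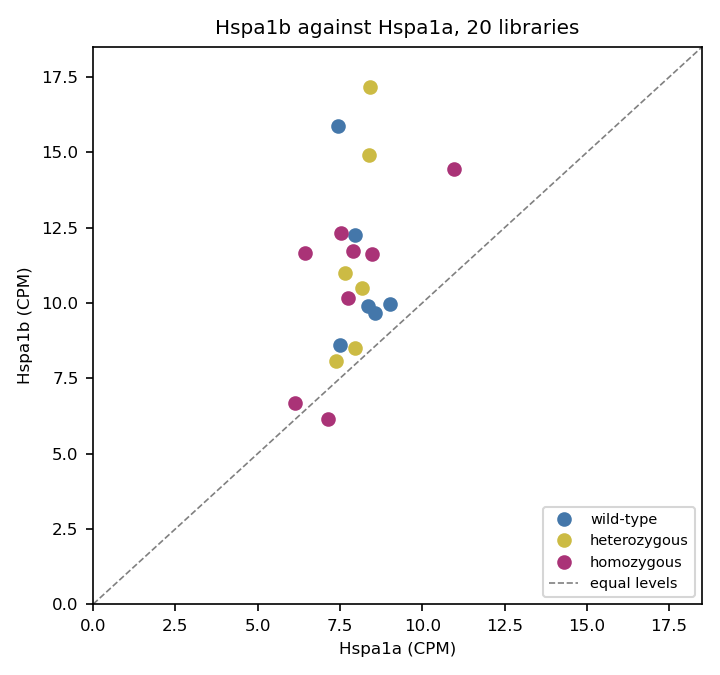
Level of Hspa1b (y axis, CPM) against Hspa1a (x axis, CPM), 1 point for each of the 20 libraries, coloured by genotype; the dashed line marks equal levels. All libraries but homozygous 3 lie above the line, and Hspa1b spans 6.16 to 17.2 CPM while Hspa1a spans 6.14 to 11.0 CPM.

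Hsph1 and Hspa4l encode HSP110 proteins, which release the nucleotide from HSP70 and so let it drop its client. Hsph1 spans bases 149614287 to 149636376 of chromosome 5, minus strand (ENSMUSG00000029657). Its lowest, median and highest levels were 277, 301 and 344 CPM in wild type, 271, 293 and 334 CPM in heterozygotes and 261, 299 and 326 CPM in homozygotes. As for Hspa8, wild-type library 1 was the highest, while the lowest was homozygous library 3. The log2 change of Hsph1 was -0.038 in homozygotes against wild type (SE 0.054, edgeR adjusted p = 0.783) and -0.046 in heterozygotes (SE 0.058, edgeR adjusted p = 0.9996).

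Hspa4l spans bases 40744495 to 40796103 of chromosome 3, plus strand (ENSMUSG00000025757). It was the steadiest of the 10, at 189, 197 and 203 CPM in wild type, 181, 192 and 214 CPM in heterozygotes and 186, 198 and 212 CPM in homozygotes. The highest of the 20 libraries was 1.18 times the lowest, and both were heterozygotes. Its log2 change in homozygotes against wild type was 0.015 (SE 0.035, edgeR adjusted p = 0.872).

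Hsp90aa1 encodes the inducible form of the cytosolic HSP90, which matures kinases and steroid receptors and holds HSF1 inactive. The gene spans bases 110690605 to 110702728 of chromosome 12, minus strand (ENSMUSG00000021270). It ranked 98 by mean CPM among the genes tested, with 797, 869 and 988 CPM in wild type, 796, 831 and 928 CPM in heterozygotes and 823, 869 and 915 CPM in homozygotes. Wild-type library 1 was the highest here too, and heterozygous library 4 stood above the other 5 heterozygotes. The log2 change was -0.022 in homozygotes against wild type (SE 0.042, edgeR adjusted p = 0.846), -0.065 in heterozygotes against wild type (SE 0.045, edgeR adjusted p = 0.9996) and 0.043 in homozygotes against heterozygotes (SE 0.042, edgeR adjusted p = 0.737).

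Dnajb1 encodes the J-domain protein HSP40, which hands clients to HSP70 and starts its ATP hydrolysis. It spans bases 83608175 to 83611902 of chromosome 8, plus strand (ENSMUSG00000005483). Its lowest, median and highest levels were 59.6, 61.0 and 70.6 CPM in wild type, 55.3, 57.7 and 62.0 CPM in heterozygotes and 49.5, 60.1 and 68.4 CPM in homozygotes. Wild-type libraries 1 and 3 stood above the other 4, and 4 of the 6 heterozygous and 4 of the 8 homozygous values lay below the lowest wild-type value while the others lay within the wild-type range. Of the 10 genes Dnajb1 had the smallest p in each comparison with wild type: the log2 change was -0.12 in homozygotes (SE 0.067, unadjusted p = 0.0929, adjusted p = 0.409 by edgeR) and -0.12 in heterozygotes (SE 0.072, unadjusted p = 0.0961, adjusted p = 0.9996 by edgeR). The 95% interval of the homozygous change ran from -16.3% to 1.48%.

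Bag3 encodes a co-chaperone that exchanges the nucleotide of HSP70 and directs its clients to autophagy. It spans bases 128523583 to 128546977 of chromosome 7, plus strand (ENSMUSG00000030847), with 2610306O10Rik in an intron on the same strand. Levels of Bag3 were 7.88, 8.43 and 9.69 CPM in wild type, 7.88, 8.95 and 10.4 CPM in heterozygotes and 7.15, 8.27 and 9.44 CPM in homozygotes. The ranges overlapped, with 3 of the 8 homozygous values below the lowest value of each other genotype and the highest value in a heterozygote. The log2 change was -0.051 in homozygotes against wild type (SE 0.071, edgeR adjusted p = 0.778) and -0.10 in homozygotes against heterozygotes (SE 0.071, edgeR adjusted p = 0.625).

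Hspb1 encodes the small heat shock protein HSP27 (HSP25 in mice), which holds unfolded proteins without using ATP and which Bag3 can link to HSP70. It spans bases 135887919 to 135889563 of chromosome 5, plus strand (ENSMUSG00000004951) and had the lowest CPM of the 10. The values were 3.48, 3.97 and 5.03 CPM in wild type, 3.13, 3.70 and 5.11 CPM in heterozygotes and 2.31, 3.36 and 5.01 CPM in homozygotes. The 2 lowest of all 20 values were homozygous libraries 6 and 3, yet homozygous libraries 7 and 8 were among the 4 highest. The log2 change in homozygotes against wild type was -0.18, the largest estimate of the 10, with an SE of 0.16 (edgeR adjusted p = 0.611).

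Hsf1, the gene of the transcription factor that drives the response, spans bases 76477445 to 76500972 of chromosome 15, plus strand (ENSMUSG00000022556). HSF1 is regulated mainly as a protein, so its mRNA does not report its activity. Its levels were 31.9, 34.8 and 36.5 CPM in wild type, 31.2, 33.6 and 37.8 CPM in heterozygotes and 29.2, 33.0 and 35.6 CPM in homozygotes. Heterozygous library 6 was the highest and homozygous library 3 the lowest of the 20. The log2 change of Hsf1 was -0.071 in homozygotes against wild type (SE 0.050, edgeR adjusted p = 0.515).

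**Figure D3:**
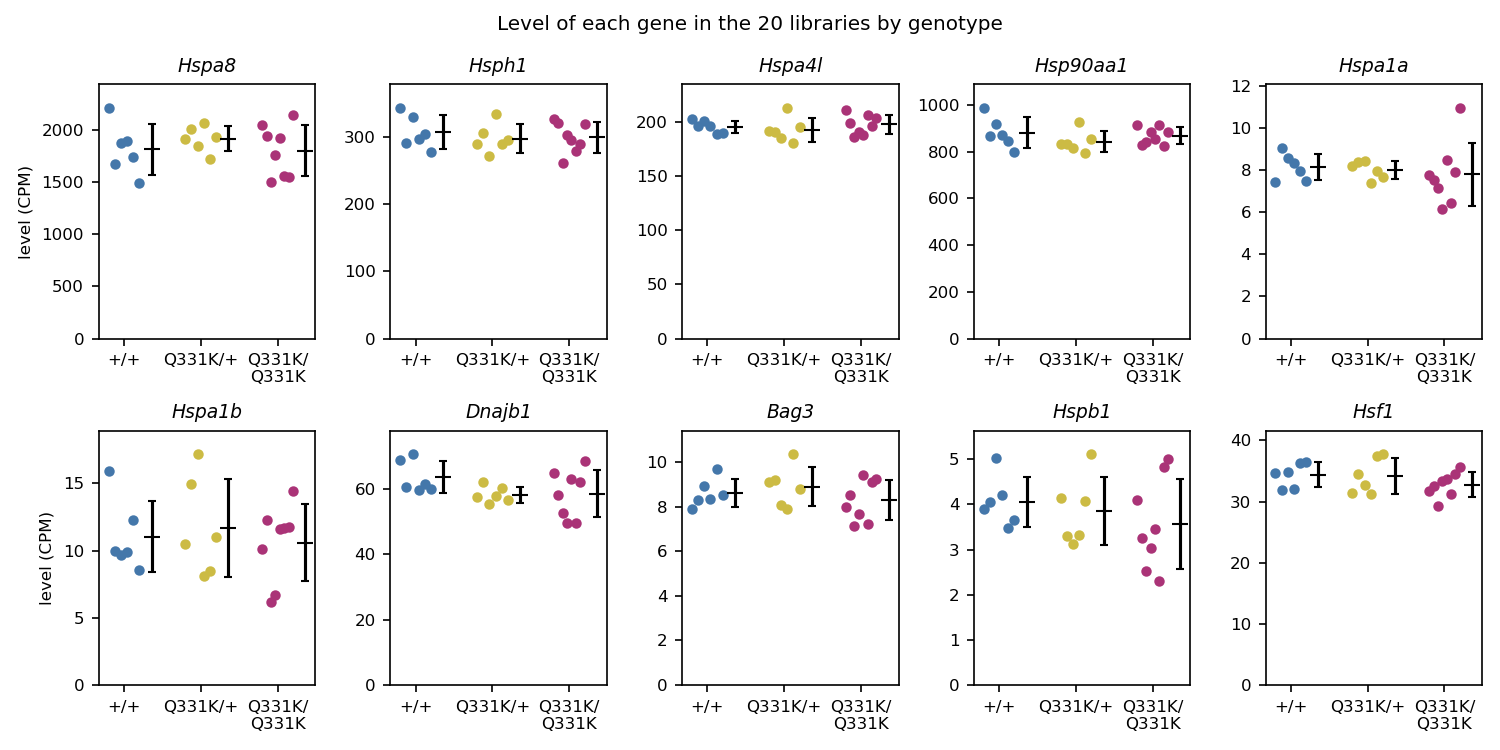
Level of each gene (CPM, linear axis from 0) in the 6 wild-type (+/+), 6 heterozygous (Q331K/+) and 8 homozygous (Q331K/Q331K) libraries; 1 point for each library, with the group mean (horizontal bar) and SD (vertical bar). The groups overlap for every gene, and Hspa1b and Hspb1 show the widest scatter.

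To compare genes with each other, levels were divided by the length of all exons joined (GENCODE M21), in CPM per kb. That length joins every annotated transcript, from 1 for Hspa1a, Hspa1b and Bag3 to 16 for Hsf1. The order and the overlaps below depend on it. The order was led by Hspa8, which was at 428 CPM per kb (346 to 515 over the 20 libraries), followed by Hsp90aa1 at 220 (202 to 251) and Hsph1 at 41.4 (35.9 to 47.3), and the ranges of these 3 did not overlap. Dnajb1 at 18.7 (15.4 to 22.0) and Hspa4l at 16.6 (15.4 to 18.1) overlapped each other. The 5 lowest were Hsf1 at 4.75, Hspa1b at 3.95, Hspb1 at 3.68, Bag3 at 3.35 and Hspa1a at 2.68, and each overlapped its neighbour in this order. The inducible HSP70 genes Hspa1a and Hspa1b lay below Hspa8 in every library.

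The genes differed in how much they varied within a genotype. The SD of log2 CPM within genotypes was 0.404 for Hspa1b, 0.314 for Hspb1, 0.180 for Hspa1a, 0.173 for Hspa8, 0.135 for Dnajb1 and 0.110 for Hsph1. Each gene was set beside the 500 genes nearest to it in mean level, as a description. Hspa1b varied more than 99.8% of its 500, Hspa8 more than 96.6%, Dnajb1 more than 95.6%, Hspb1 more than 95% and Hsph1 more than 94.6%. At the other end, Hspa4l, with an SD of 0.0657, varied more than 51.6% of genes of like level.

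By library, homozygotes held both extremes. Homozygous library 8 lay above the median of all 20 libraries for 10 of the 10 genes and was among the 5 highest for 8 of them. Homozygous library 3 lay above the median for 0 of 10 and was among the 5 lowest for 9. Wild-type libraries 1 and 3 were above the median for 8 genes each, and wild-type library 6 for 1. The 13 immediate early genes, which neurons switch on when active, were all detected, and their summed level was 1193 to 1726 CPM in wild type, 1158 to 1610 CPM in heterozygotes and 1158 to 1956 CPM in homozygotes. That sum was highest in homozygous library 8 and lowest in homozygous library 3. Heterozygous library 6, above the median for 5 of the 10 genes, was almost as low (1158.36 beside 1157.96 CPM). After subtracting genotype means, Pearson's r with the log2 sum ran from -0.05 for Hsp90aa1 to 0.67 for Hspa1a (Spearman's rho 0.46). The part of the immediate early genes in the levels of the chaperone genes was not tested.

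**Figure D4:**
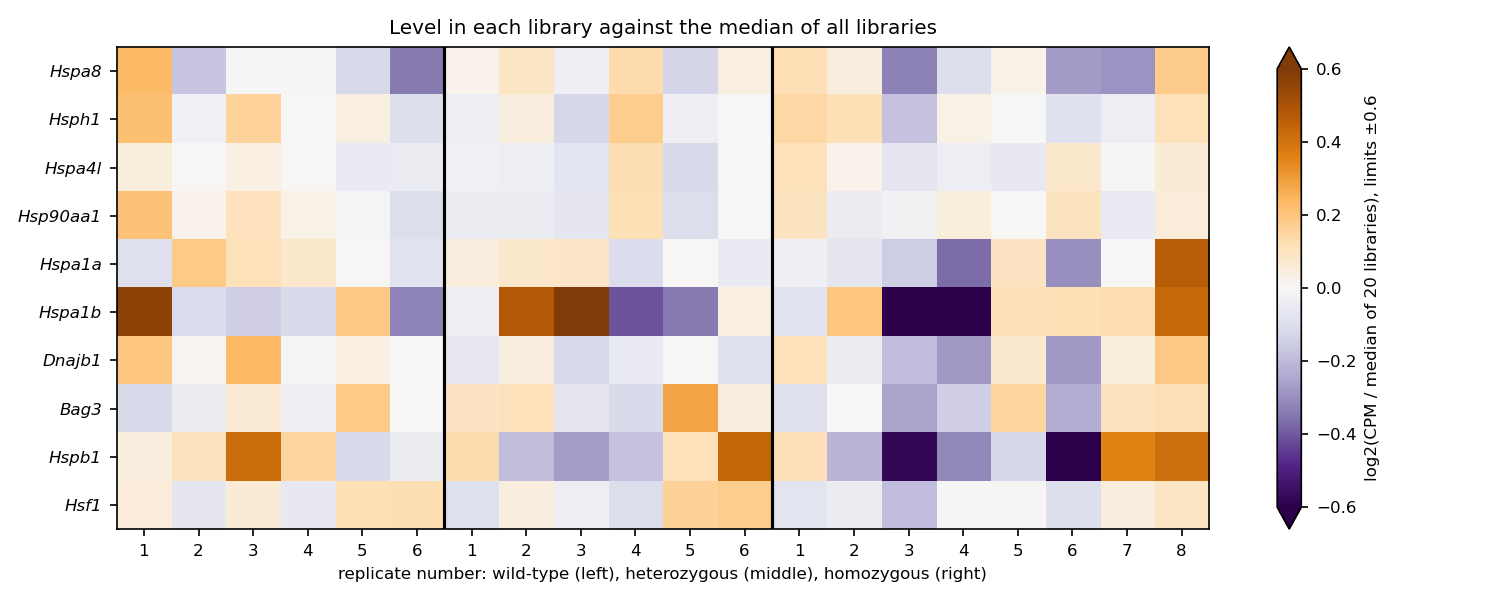
Level of each gene (rows) in each library (columns, by genotype and replicate number) as log2 of CPM over the median of the 20 libraries; orange is above the median, purple below, and colours stop at ±0.6. Homozygous library 8 is orange in all 10 rows and homozygous library 3 is below the median in all 10, while the other libraries mix both.

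Pairs of the 10 genes were then compared over the 20 libraries, after subtracting each genotype's mean from log2 CPM. Of 45 pairs, 40 had a positive Pearson r, the median r was 0.36, and r ran from -0.45 (Hsp90aa1 with Bag3) to 0.85 (Hspa8 with Hsph1). With Benjamini-Hochberg adjustment over the 45 pairs and a threshold of 0.05, 9 were called by Pearson's r, all positive, and 4 by Spearman's rho (permutation within genotypes, two-sided, 100000 resamples). The share among pairs of all genes was not counted, so these counts are descriptions. Hspa1a ranked 218 by its r with Dnajb1 among the 13895 other genes with a mean of at least 1 CPM. Dnajb1 ranked 40 by its r with Hspa1a. For Hspa8 and Hspb1, the pair at the median r, Hspb1 ranked 1690 by its r with Hspa8, and Hspa8 ranked 1431 by its r with Hspb1. Not every r was positive: Bag3 and Hsf1 had r of -0.45 and -0.25 with Hsp90aa1, and neither of these passed the adjustment (adjusted permutation p = 0.109 and 0.502). Whether the genes form 1 group or more was not tested.

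The closest pair was Hspa8 and Hsph1, an HSP70 and its nucleotide exchange factor. Pearson's r was 0.85 (permutation p = 2e-05, adjusted p = 0.0009) and Spearman's rho 0.83 (permutation p = 5e-05, adjusted p = 0.00225). It was 0.89 in wild type, 0.73 in heterozygotes and 0.89 in homozygotes, and 0.79 without the 2 libraries farthest from the median of Hspa8. Among the 13895 other genes with a mean of at least 1 CPM, Hsph1 ranked 1 by its r with Hspa8, and Hspa8 ranked 4 by its r with Hsph1. The pair with the next highest r was Hsp90aa1 and Hspa4l, with r of 0.77 (permutation p = 4e-05, adjusted p = 0.0009) and rho of 0.77 (permutation p = 0.00023, adjusted p = 0.00517). Without the 2 farthest libraries its r was 0.70. Many other genes were closer to each: Hspa4l ranked 129 by its r with Hsp90aa1, and Hsp90aa1 ranked 35 by its r with Hspa4l. Both genes also varied with the summed levels of cell type markers over the same libraries, given here as descriptions. Pearson's r of Hsp90aa1 was -0.67 with mural, -0.65 with endothelial, -0.58 with excitatory neuron, -0.56 with microglia and -0.48 with astrocyte markers. For Hspa4l it was -0.46, -0.43, -0.67, -0.55 and -0.46 in the same order. The part of these markers in the correlation of the pair was not tested.

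The other 7 called pairs were not called when 2 libraries were left out. Without the 2 libraries farthest from the median of the first gene of each pair, 2 of 45 pairs were called, and these were Hspa8 with Hsph1 (adjusted permutation p = 0.0162) and Hsp90aa1 with Hspa4l (adjusted permutation p = 0.0270). When homozygous libraries 3 and 8 were left out, a choice made after seeing the data, 2 pairs were called, again these, with r of 0.82 and 0.77. In those 18 libraries r of the other 7 was still between 0.54 and 0.69, with adjusted permutation p from 0.0787 to 0.164. For Hsph1 with Hsp90aa1 r was 0.67 in all 20 libraries and 0.69 in the 18, for Hspa8 with Hsp90aa1 0.63 and 0.65, and for Hsph1 with Hspa4l 0.67 and 0.61. In the same order r was 0.94, 0.95 and 0.78 in wild type and 0.84, 0.83 and 0.85 in heterozygotes. In homozygotes r was 0.24, 0.28 and 0.55, and without the 2 farthest libraries 0.62, 0.42 and 0.52. For Hspa1a with Dnajb1 r was 0.70 in all (rho 0.51, adjusted permutation p = 0.0289 for r and 0.141 for rho), but -0.10 in wild type, 0.14 in heterozygotes and 0.89 in homozygotes, and 0.49 without homozygous libraries 8 and 4. Bag3 with Hsf1, at r of 0.69, was positive within each genotype, at 0.50, 0.64 and 0.84.

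**Figure D5:**
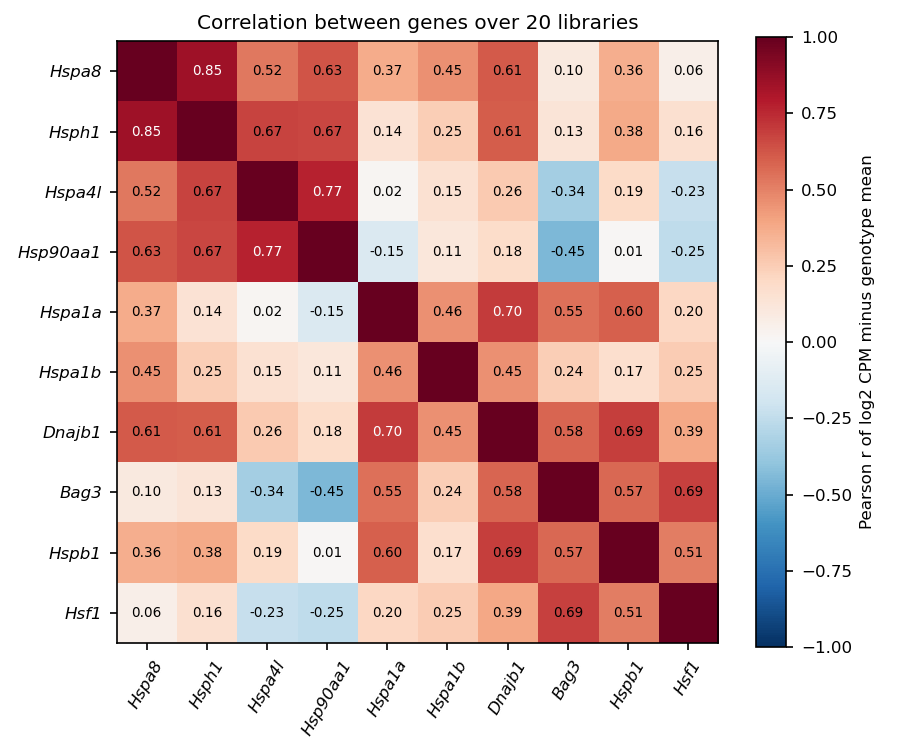
Pearson's r between each pair of the 10 genes over the 20 libraries, from log2 CPM minus the genotype mean (red positive, blue negative, white 0). Hspa8, Hsph1, Hspa4l and Hsp90aa1 have r from 0.52 to 0.85 with each other, and Hspa1a, Dnajb1, Bag3 and Hspb1 from 0.55 to 0.70. In the second set only Hspa1a with Dnajb1 and Dnajb1 with Hspb1 were called (adjusted permutation p = 0.0289 for each, 0.0675 to 0.0709 for the others). Its r ran from -0.15 to 0.59 in wild type, -0.34 to 0.62 in heterozygotes and 0.76 to 0.89 in homozygotes. In the first set Hspa8 with Hspa4l was not called (0.0652). The r of the first set ran from 0.78 to 0.95 in wild type, 0.73 to 0.995 in heterozygotes and 0.24 to 0.89 in homozygotes. Dnajb1 also has r of 0.61 with Hspa8 and with Hsph1, and Hsp90aa1 and Bag3 are at -0.45.

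Over the same 20 libraries the genes most like 4 of the members were listed among the 13895 others by Pearson's r, as a description. The closest to Hsp90aa1 were Hspa4 (r 0.94), itself an HSP110 gene, Mgea5 (0.92), Fam115a (0.91), Kpna1 (0.91) and Rab3c (0.91). For Dnajb1 they were Irs2 (0.89), the immediate early gene Fosb (0.89), P4ha1 (0.88), Kdm5b (0.87) and Rgag4 (0.86). For Hspb1 the first was Dnaja4 (0.77), another J-domain gene, before Gatsl2 (0.76), Gpr4 (0.75), Cys1 (0.74) and Abca9 (0.72). Hspa1b had weaker matches: Zfp369 (0.76), Ptpn14 (0.73), Nf1 (0.72), Tacc1 (0.70) and Ubn2 (0.70).

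The wider chaperone system was read in homozygotes against wild type. Of 32 other cytosolic chaperones and co-chaperones, 0 were called by edgeR, beside 1.56% of all genes tested. An unadjusted p under 0.05 was found for 5 of the 32, all 5 lower, a share close to the 16.1% of all genes. The median log2 change of the 32 was -0.027. Bag5, a co-chaperone of HSP70, had a log2 change of -0.098 (SE 0.032, edgeR adjusted p = 0.116), and Hspb8, the small heat shock protein that works with Bag3, one of -0.27 (SE 0.094, edgeR adjusted p = 0.153). Hspb8 averaged 12.1 ± 1.11 CPM over the 6 wild-type, 10.9 ± 1.28 CPM over the 6 heterozygous and 10.1 ± 1.65 CPM over the 8 homozygous libraries (mean ± SD). Of 3 further genes, the heat shock factors Hsf2 and Hsf4 and the heat shock factor binding protein gene Hsbp1, 0 were called, with Hsf4 at -0.13 (edgeR adjusted p = 0.163) and Hsf2 at 0.013 (edgeR adjusted p = 0.913).

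The chaperonin and the chaperones of mitochondria and the endoplasmic reticulum also held 0 called genes in that comparison. The 8 subunits of the cytosolic chaperonin TRiC had a median log2 change of -0.0020, with Cct4 at -0.068 and Cct2 at 0.029. The 9 mitochondrial chaperones had a median of -0.011, with Trap1 at 0.035 and Clpb at -0.023. Of the 13 chaperones of the endoplasmic reticulum, known targets of the unfolded protein response, all 13 estimates lay below 0, beside 49.4% of all genes, with a median of -0.099. Of these 13, 1 had an unadjusted p under 0.05, beside 16.1% of all genes. Sdf2l1 was at -0.39 (SE 0.18, edgeR adjusted p = 0.284) and Manf at -0.19 (SE 0.091, edgeR adjusted p = 0.326). Of the 13 immediate early genes 12 estimates lay above 0 and 1 below, beside 49.4% of all genes below 0, with a median of 0.10. Of these 13, 0 were called, beside 1.56% of all genes. An unadjusted p under 0.05 was found for 2 of the 13, both higher, beside 16.1% of all genes. Npas4 was at 0.44 (SE 0.14, edgeR adjusted p = 0.132) and Fos at 0.30 (SE 0.14, edgeR adjusted p = 0.293).

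Markers of other cell types were read beside these results. Of the 12 marker lists, 2 held a called gene in homozygotes against wild type: the ependymal marker Rsph1, with a log2 change of 0.39 (edgeR adjusted p = 0.0416), and Pvalb of inhibitory neurons, with -0.32 (edgeR adjusted p = 0.00161). Each list held 1 called gene of 6, beside 1.56% of all genes tested. All 6 ependymal estimates lay above 0. The inhibitory neuron markers were mixed, with 4 estimates below 0 and 2 above, from -0.32 to 0.077. Ependymal markers summed to 8.18 to 9.93 CPM in wild type, 9.24 to 16.5 CPM in heterozygotes and 8.72 to 21.4 CPM in homozygotes, with 0 of the 6 at 0 in all libraries. Without the 4 libraries of high ependymal score, 0 of the 10 heat shock genes were called in any comparison, and in homozygotes against wild type the log2 change of Hspa1a was 0.0074 and that of Hspa1b 0.013. Bag3 also moved up, from -0.051 to -0.028. Hspa8 and Hsph1 moved down instead, from -0.0096 to -0.066 and from -0.038 to -0.090.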

How the data were processed

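The deposited values were unnormalised whole-number counts, 1 column for each of 20 libraries. Per the submitters' processing notes, reads were handled with Trim Galore 0.4.3 and HISAT2 2.0.5 on GRCm38. Libraries were stranded, per the labels' protocols. How reads were counted, and on which strand, is not given in the sources used here.

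All 20 libraries entered 1 edgeR 4.0.16 fit by genotype in R 4.3.3, with TMM scaling, filterByExpr and a robust quasi-likelihood test, and p-values were adjusted over the 16690 genes left. Log2 CPM used a prior count of 2. The fit was tested on simulated counts. In homozygotes against wild type it called 4.67% of genes set to a log2 change of 0.1, 42% at 0.2 and 94% at 0.5. With homozygotes set to 0.2, it called 0.667% in heterozygotes against wild type. False calls made up 3.83% of calls in homozygotes against wild type and 7.38% in homozygotes against heterozygotes. That share was 5% in heterozygotes against wild type and 4.02% in the trend. The genes changed in the simulation were drawn at random. The shares called are averages over them and need not hold for members that varied more than genes of like level, such as Hspa1b and Hspb1. Coordinates of genes are those of the deposited table. Overlaps and exon lengths are from GENCODE M21. Rows without a gene identifier (56) held at most 0.0835% of any library's counts. No 2 libraries of a genotype agreed within sampling noise: chi-square per degree of freedom was at least 13.0 in the 58 pairs.

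As alternatives, DESeq2 1.42.0, its size factors in edgeR, limma voom (limma 3.58.1), 2 other filters, a replicate block, 3 surrogate variables (sva 3.50.0, on log2 CPM), fits of the compared genotypes alone, Hspa1a and Hspa1b as 1 gene, and left-out libraries were run. The members, the lists and the tests were chosen with earlier results of these data known. Named are all 10 members, of each other list the called genes and the 2 of smallest p in homozygotes against wild type (of cell type markers only the called genes), and the 5 genes most like each of 4 members.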

Additional observations from a re-analysis of the deposited data

How the results depend on the processing

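No member was called under any alternative, in 148 counts over the 5 comparisons. Of 1480 alternative log2 changes of members, 87 had the opposite sign, 62 of them among the 1000 with 1 library left out, and the smallest adjusted p was 0.0934. The cause of the differences below was not tested. Over all genes, DESeq2 called 647 in homozygotes against wild type, 2 in heterozygotes against wild type, 103 in homozygotes against heterozygotes, 696 in the trend and 1 against the midpoint. The 3 surrogate variables gave 102, 1 and 99 in homozygotes against wild type, homozygotes against heterozygotes and the trend. Without a filter 11 were called in homozygotes against heterozygotes, and without the libraries of high ependymal score 193 in the trend. With 1 library left out, calls ran from 115 (without wild-type 6) to 314 in homozygotes against wild type, from 5 (without heterozygous 2, homozygous 1 or homozygous 8) to 31 (without homozygous 2) in homozygotes against heterozygotes and from 159 (without wild-type 5 or 6) to 436 in the trend. These counts moved by over 1.5 times without wild-type 1, 3, 5 or 6 or homozygous 5 in the first, wild-type 6, heterozygous 2, 3 or 6 or homozygous 1, 2, 6 or 8 in the second and wild-type 5 or 6 or homozygous 5 in the trend. Of the pairs of members, 2 were called without the 2 farthest libraries and 2 without homozygous libraries 3 and 8.

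Some estimates changed sign. Without the libraries of high ependymal score, the log2 changes of Hspa1a and Hspa1b were 0.00737 and 0.0135 in homozygotes against wild type, 0.0520 and 0.0160 in homozygotes against heterozygotes, 0.00238 and 0.00649 in the trend and -0.0483 and -0.00923 against the midpoint, that of Hspa1b in heterozygotes against wild type was -0.00249, and that of Hsph1 in homozygotes against heterozygotes -0.0333. With surrogate variables, Hspa1b was at 0.102 and Hspa4l at -0.00527 in homozygotes against wild type, Hspa1a at 0.0289 and Hsf1 at 0.0115 in heterozygotes against wild type, Hsph1 at -0.0520 and Dnajb1 at -0.0315 in homozygotes against heterozygotes, and Hspa1b at 0.0612 and Hspa4l at -0.00448 in the trend. Limma voom gave 0.00396 for Hspa8 in homozygotes against wild type, 0.00286 in the trend, and -0.00613 for Hspa1a and -0.0480 for Hspb1 against the midpoint. Hspa1a and Hspa1b summed gave 0.0375 in heterozygotes against wild type. Of 18 same-numbered pairs of samples, 1 had a correlation over 0.1, with a median of 0.044. No value for differently numbered pairs stands beside these, so they do not decide whether the replicate numbers pair the samples. With the replicate block Hsph1 was at -0.00269 and Dnajb1 at -0.0566 in homozygotes against heterozygotes. Values that kept their sign also moved by over 1.5 times, in 20 of 100 cases in homozygotes against wild type, 12 of 100 in heterozygotes against wild type, 19 of 100 in homozygotes against heterozygotes, 19 of 90 in the trend and 21 of 90 against the midpoint. In homozygotes against wild type the block gave -0.394 for Hspb1, -0.186 for Hspa1b, -0.179 for Dnajb1, -0.171 for Hspa1a and -0.108 for Bag3, and surrogate variables gave -0.186 for Hspa8, -0.123 for Hspa1a, -0.122 for Hsph1, -0.0563 for Hsp90aa1 and -0.00635 for Hsf1.

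With 1 library left out, log2 changes in homozygotes against wild type ran from -0.132 to 0.0739 for Hspa1b, from -0.0594 to 0.0537 for Hspa8, from -0.0482 to 0.0118 for Hsp90aa1 and from -1.43e-05 to 0.0266 for Hspa4l. With the sign kept, they ran from -0.149 (without homozygous 8) to -0.0209 (without homozygous 4) for Hspa1a, from -0.269 (without homozygous 8) to -0.110 (without wild-type 3) for Hspb1, from -0.0651 (without wild-type 6) to -0.00535 (without wild-type 1) for Hsph1 and from -0.0797 (without homozygous 5) to -0.0162 (without wild-type 5) for Bag3. In heterozygotes against wild type they ran from -0.0537 to 0.00457 for Hspa1a, from -0.0588 to 0.212 for Hspa1b, from -0.000346 to 0.0842 for Bag3 and from -0.0407 to 0.0166 for Hsf1. In homozygotes against heterozygotes the ranges were -0.120 to 0.00786 for Hspa1a, -0.227 to 0.00282 for Hspa1b, -0.0179 to 0.0436 for Hsph1 and -0.0279 to 0.0385 for Dnajb1. In the trend they were -0.0696 to 0.0230 for Hspa1b, -0.0341 to 0.0178 for Hspa8 and -0.0190 to 0.00868 for Hsp90aa1, and against the midpoint -0.0183 to 0.0457 for Hspa1a, -0.0308 to 0.201 for Hspa1b, -0.0855 to 0.0640 for Hspb1 and -0.00458 to 0.0515 for Hsf1. The fits of only the genotypes compared give no value for the trend and the midpoint, which need 3 genotypes.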
